A study of Mus musculus with 8 samples.

Results

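The 10 genes described here defend muscle against oxidants without using selenium. They were chosen by name: NRF2 (Nfe2l2) and its inhibitor Keap1, the NRF2 targets Nqo1 and Gclc, the superoxide dismutases Sod1 and Sod2, the peroxide-removing enzymes Cat and Prdx3, and the metallothioneins Mt1 and Mt2. They are 10 of 24341 genes listed in each library, and all 10 were among the 11096 genes that passed the filter on low values. The libraries came from the tibialis anterior of 8 mice, aged 12 weeks and kept on chow. The 4 knockout animals (Carm1 skm-/-) carried floxed Carm1 with HSAcre (HSAcre Tg/0), whose human skeletal actin promoter drives Cre in muscle fibres. The 4 control animals (Carm1 skm+/+, titled wildtype) carried floxed Carm1 without Cre (HSAcre 0/0), so floxed Carm1 is shared by both groups. Presence of Cre and loss of Carm1 go together in every library and cannot be told apart. Carm1 encodes an arginine methyltransferase, and other cells of the muscle keep the gene.

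NRF2 is a transcription factor that KEAP1, an adaptor of the CUL3 ubiquitin ligase, marks for degradation while the cell is not under oxidant stress. When oxidants or electrophiles modify KEAP1, NRF2 builds up and, paired with small MAF proteins, binds antioxidant response elements (AREs) of genes such as Nqo1 and Gclc. NRF2 is controlled largely through its protein, which these data do not measure. The zinc-sensing factor MTF1 binds metal response elements (MREs) of the metallothionein genes, which glucocorticoids also induce.

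Mt1 and Mt2 lie next to each other on chromosome 8 and were the pair of members with the highest Pearson r over the 8 libraries, so their upstream sequences are shown first. Both runs are the 250 bases before the transcript start that RefSeq's promoter entry uses, on the plus strand of GRCm38.p6, at chr8:94178839-94179088 for Mt1 and chr8:94172368-94172617 for Mt2. These starts are also those of the deposited files. RefSeq's gene region for Mt1 begins upstream, at 94178883, so most of the Mt1 run lies inside it. Capitals mark matches to the MRE core, spelled TGCACNC or TGCGCNC, and to the ARE core, spelled TGACNNNGC, searched on both strands. No 2 matches overlapped.
Mt1: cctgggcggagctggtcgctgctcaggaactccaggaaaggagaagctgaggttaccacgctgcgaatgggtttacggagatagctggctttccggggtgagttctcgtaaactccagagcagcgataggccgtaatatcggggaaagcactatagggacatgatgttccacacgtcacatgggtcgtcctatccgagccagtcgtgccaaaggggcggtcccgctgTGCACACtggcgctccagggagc
Mt2: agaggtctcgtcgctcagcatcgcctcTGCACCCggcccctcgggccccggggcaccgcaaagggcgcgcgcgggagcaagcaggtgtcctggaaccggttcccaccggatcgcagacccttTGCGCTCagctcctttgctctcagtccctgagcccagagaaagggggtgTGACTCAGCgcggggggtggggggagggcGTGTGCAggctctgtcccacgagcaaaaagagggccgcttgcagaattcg
In Mt1 an MRE core began at -23 from the start, and a further pair of matches, TGCACTC and TGCGCTC, began at 3 and 21 bases after it. In Mt2 MRE cores began at -223, -128 and -50 and at 5 bases after the start, with an ARE core, TGACTCAGC, at -79. Over the window of 300 bases that includes 50 after the start, 25.7% of 32851 RefSeq promoters held at least 1 MRE core and 1.97% held at least 3, as Mt1 and Mt2 did. An ARE core stood in 12.4% of these windows. Among the other members it was found for Nfe2l2 (TGACTCCGC at -240) and, on the opposite strand, for Sod1 (GCGTGGTCA at -56). Sequence outside this window was not searched, so a gene without a match here may hold an element elsewhere. Promoter sequences were matched for 9 of the 10 members, Gclc being the exception. A match is a description of letters and not evidence of binding.

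The deposited unit is FPKM, a fragment count corrected for transcript length and library size. FPKM were divided by 1 factor per library (0.904 to 1.07), and these scaled FPKM, which are per length and can be compared between genes, are the levels given below. Read depth is not stated. The step between low values put the depth of the shallowest library at 81.0% of the deepest. Carm1, the targeted gene, had a mean ± SD of 30.5 ± 4.82 over the 4 controls and 15.4 ± 2.57 over the 4 knockouts, differing by -0.94 on the log2 scale (exact permutation test, 2-sided, p = 0.0286, which is the lowest value possible with 70 assignments). The region listed for Carm1, chromosome 9 from 21546894 to 21595970, overlaps 1810026J23Rik and Yipf2. Its value thus rests in part on how reads were divided between these genes. The labels describe all animals as male. However, Xist, the RNA of X inactivation in female cells, was found in control 1 (19.6 FPKM), knockout 2 (22.9) and knockout 4 (20.5), and did not exceed 0.0662 in the other 5 libraries. Those 3 libraries also stood apart in Myh2, the IIa myosin, at 764, 1540 and 1535 FPKM against 122 to 167 FPKM in the others, so the members' differences are also given without them. The Y-linked gene Eif2s3y was at most 0.112 FPKM in those 3 libraries and 42.3 to 58.1 in the other 5. The IIb myosin Myh4 had a value in knockouts 2 and 4 only, at 2937 and 3056 FPKM. In the other 6 libraries it was listed at 0 with a status that was not OK. That 0 is not a measured level, so Myh4 cannot be compared between libraries, and it was left out of the fits. Among fast-muscle markers with usable values, Mylpf and Pvalb had lowest values of 14600 and 7700 scaled FPKM.

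The members spanned a wide range of levels. Sod1 was the highest by its mean over the 8 libraries, at 354 scaled FPKM, followed by Prdx3 at 256, Mt1 at 133, Sod2 at 91.6, Mt2 at 80.2, Cat at 54.6, Keap1 at 28.4, Nfe2l2 at 24.8, Nqo1 at 16.9 and Gclc at 6.91. Only 2 neighbours in this order had ranges that did not overlap: Cat above Keap1 and Nqo1 above Gclc. The metallothioneins had no fixed place, as Mt1 was above Sod2 in 4 of 8 libraries and Mt2 above Cat in 4 of 8.

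None of the 10 members passed the test between knockout and control at an adjusted p under 0.05 (limma across all genes tested, Benjamini-Hochberg adjustment). Over all genes tested 0.36% were called, 0.198% higher and 0.162% lower, so with 10 members a count of 0 is near the background. With Xist as a covariate the count was again 0, where 2.01% of all genes were called, 1.09% higher and 0.919% lower. The adjusted p-values of the members lay between 0.297 and 0.889. Sod2 was the 1 member with an unadjusted p under 0.05 (0.0244, lower), as were 13.1% of all genes, 6.07% in the lower direction. It was also the 1 member with no overlap between the groups, lower in the knockout, which held for 3.64% of all genes. No member was without overlap in the higher direction, against 4.67%, and in either direction the share of all genes was 8.31%. Of the members 6 had a log2 difference below 0, as did 50.5% of all genes, and 4 above it, with a median of -0.08, against -0.002 over all genes tested.

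**Figure D1:**
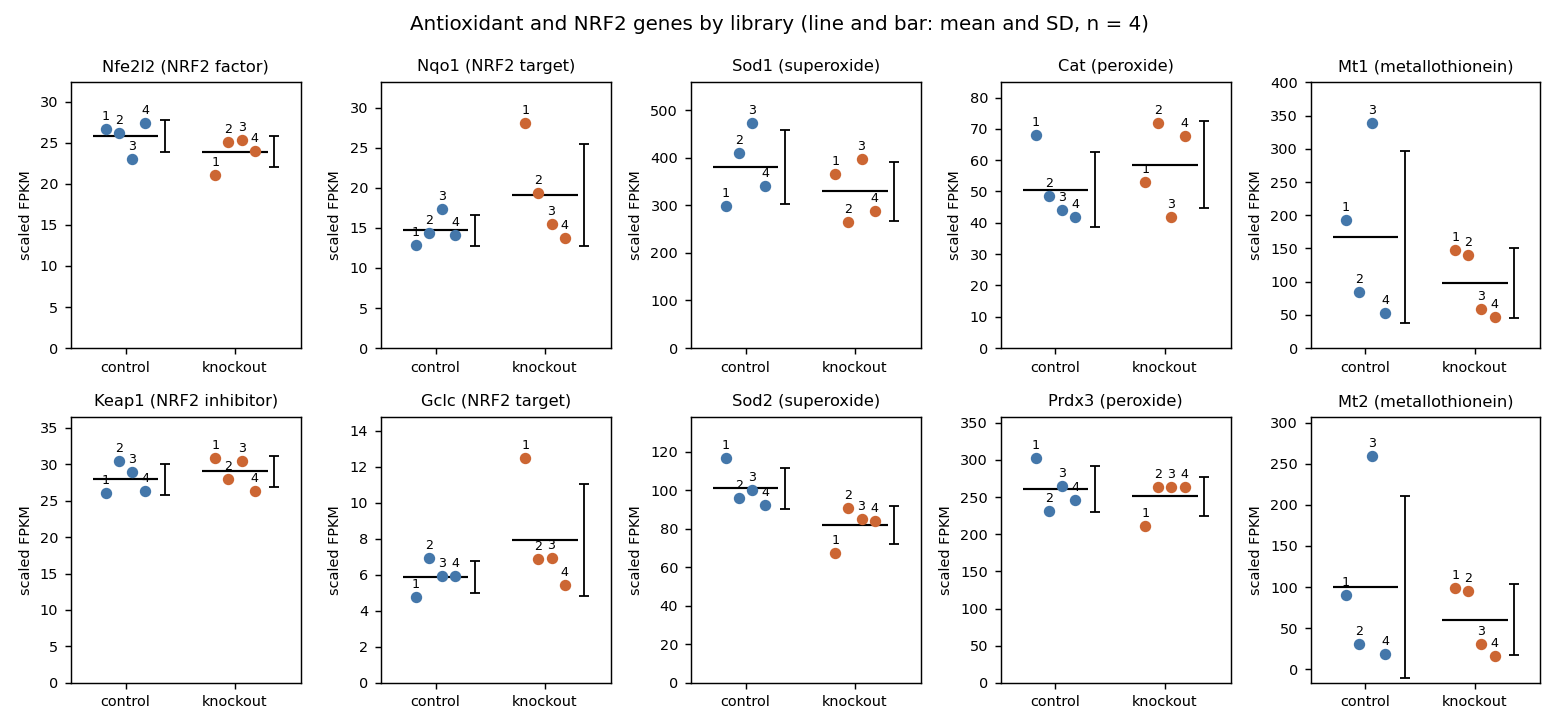
Scaled FPKM of the 10 members (linear axes) in the 4 control and 4 knockout libraries, each point labelled with its replicate number; the horizontal line is the mean and the bar beside it the SD (n = 4). Sod2 is the panel in which the 4 knockout points, 67.7 to 90.7, all lie under the 4 control points, 92.4 to 117.

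Nfe2l2 and Keap1 were the members with the most even levels. Nfe2l2 (chromosome 2 from 75675519 to 75704641, mm10) stood at 26.7, 26.2, 23.0 and 27.4 scaled FPKM in controls 1 to 4 and at 21.1, 25.1, 25.3 and 24.0 in knockouts 1 to 4. Knockout 1 held the lowest value and control 4 the highest, and the groups overlapped. Its log2 difference on the log2(scaled FPKM + 1) scale was -0.11 (SE 0.09, adjusted p = 0.652 in limma), with a 95% interval from -0.31 to 0.09. Keap1 (chromosome 9 from 21229730 to 21239332) stood at 26.1, 30.4, 28.9 and 26.3 in controls and at 30.9, 28, 30.5 and 26.3 in knockouts. The groups overlapped almost completely. The difference of Keap1 was 0.05 (SE 0.08, adjusted p = 0.843), with an interval from -0.14 to 0.24. In the 5 libraries without Xist the differences were -0.13 for Nfe2l2 and 0.11 for Keap1. Within a group neither gene had a coefficient of variation above 8.02%.

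Other parts of the NRF2 control machinery did not pass the test either. Of 16 genes fixed as regulators and partners of NRF2, 15 were tested and 0 passed. Their median difference was -0.07, with 10 lower and 5 higher. The members aside, Cul3, the ligase scaffold that KEAP1 recruits, had the smallest p. It stood at 79.7, 80.0, 81.0 and 85.8 in controls and at 70.7, 72.1, 77.3 and 66.3 in knockouts, which do not overlap (difference -0.19, SE 0.07, adjusted p = 0.324). Maff, a small MAF partner, had means of 3.58 ± 1.48 (SD, n = 4 controls) and 1.92 ± 0.536 (SD, n = 4 knockouts; adjusted p = 0.337 in limma). Mafg, another small MAF, differed by 0.21 and Nfe2l1, the NRF2 relative that controls proteasome genes, by 0.19 on the log2 scale (adjusted p = 0.43 and 0.403). Sesn2 was below the filter.

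The targets Nqo1 and Gclc were highest in the same knockout library. Nqo1, a quinone reductase, stood at 12.9, 14.4, 17.4 and 14.1 scaled FPKM in controls and at 28.1, 19.3, 15.5 and 13.7 in knockouts. Knockouts 1 and 2 lay above every control, and knockouts 3 and 4 lay among them. Its difference was 0.32 (SE 0.20, adjusted p = 0.542), with an interval from -0.14 to 0.77. The files give Nqo1 a region on chromosome 8 from 107256164 to 107558595 that it shares with Nfat5, Nob1, Wwp2 and Mir140, while RefSeq places the gene from 107388225 to 107403205, so its value rests on how reads were divided between these genes. Gclc, the catalytic subunit of the enzyme that limits glutathione synthesis (chromosome 9 from 77754535 to 77794489), stood at 4.76, 6.91, 5.94 and 5.92 in controls and at 12.5, 6.89, 6.93 and 5.43 in knockouts. Knockout 1 alone was clearly above the controls. The difference of Gclc was 0.33 (SE 0.21, adjusted p = 0.551), with an interval from -0.15 to 0.81. Without knockout 1 the differences were 0.12 for Nqo1 and 0.11 for Gclc, so the size of both differences rests largely on that library. In the 5 libraries without Xist they were 0.43 and 0.51, and without knockouts 2 and 4 alone 0.49 and 0.60, with knockout 1 retained in each.

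Knockout 1 also stood apart in other genes. Of the 10 adipocyte markers, whose summed level was 2860 to 3190 scaled FPKM in controls and 3360 to 7180 in knockouts, knockout 1 was the highest library for 7: Adipoq at 3.29, Plin1 at 0.868, Cidec at 1.39, Lep at 0.768, Pck1 at 0.394, Car3 at 6510 and Fasn at 4.03. The other 3 did not share this order: Fabp4, an abundant fatty acid binding protein, was lowest in knockout 1, at 639 against 824 to 1110, and Retn and Cfd were highest in control 3. Adipoq, Plin1, Cidec, Lep and Pck1 were below the filter on low values and were not tested. No marker of that list was at 0 in all libraries, and Car3, which muscle fibres also express, made up most of the sum. The part of these cells in the Nqo1 and Gclc values was not tested. In bulk tissue fewer cells of a type and less RNA per cell cannot be told apart. By Pearson r over the 8 libraries the genes most like Nqo1 were B3galnt1, Wdr12, Ggnbp2, Rbbp6 and Ppif (0.974 to 0.95), each highest in knockout 1. Those most like Nfe2l2 were Rasgrp3, Xpr1, Rsph3b, Adcy9 and Pcp4l1 (0.943 to 0.92). Of these 5, Rasgrp3, Xpr1, Adcy9 and Pcp4l1 were lowest in knockout 1, as Nfe2l2 was.

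Further NRF2 targets showed no common direction. Of 31 fixed target genes 29 were tested, 0 passed, 13 were higher and 16 lower, and the median difference was -0.08. Aox1, an aldehyde oxidase, stood at 12.9, 14.7, 10.6 and 7.79 in controls and at 24.6, 20.7, 17.3 and 15.2 in knockouts, with no overlap (difference 0.72, SE 0.20, adjusted p = 0.177). Blvrb, a biliverdin reductase, was at 23.1 ± 5.44 and 35.5 ± 6.98 (adjusted p = 0.222), with a difference of 0.61 that was 0.94 in the 5 libraries without Xist. Taldo1, the transaldolase of the pentose phosphate pathway, was at 87.2 ± 6.06 and 73.5 ± 5.91 without overlap (adjusted p = 0.271), and the transporter Abcc4 at 4.82 ± 0.405 and 5.62 ± 0.462 (adjusted p = 0.396; mean ± SD, n = 4 in controls and then knockouts, limma). Hmox1, Gclm and Srxn1, standard readouts of NRF2 activity singled out after their values were seen, differed by -0.22, -0.21 and 0.09 on the log2 scale (adjusted p = 0.566, 0.488 and 0.903). The cystine carrier Slc7a11 was at most 0.0689 scaled FPKM in every library and below the filter.

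**Figure D2:**
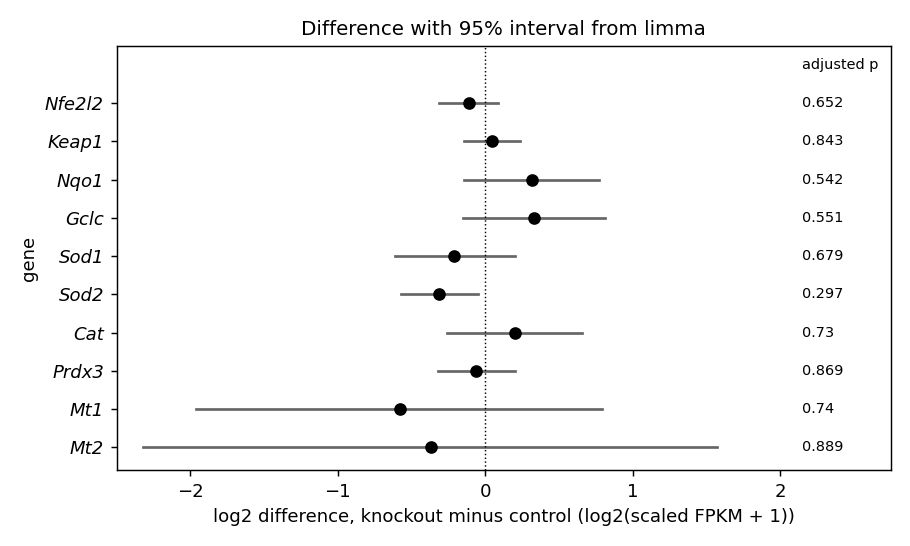
Log2 difference of each member, knockout minus control, on the log2(scaled FPKM + 1) scale (point) with its 95% interval from limma (line), and the adjusted p on the right. The interval of Sod2, from -0.57 to -0.05, is the 1 that does not include 0, and those of Mt1 and Mt2 are the widest.

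Sod2 was the member with the smallest p. It encodes the manganese superoxide dismutase of the mitochondrial matrix (chromosome 17 from 13007839 to 13018119) and stood at 117, 96.0, 100 and 92.4 scaled FPKM in controls and at 67.7, 90.7, 84.9 and 84.1 in knockouts. Control 1 was the highest and knockout 1 the lowest library, and the gap between the groups, from 92.4 to 90.7, was narrow. The mean over knockouts was 80.7% of that over controls. On the log2 scale it differed by -0.31 (SE 0.11, adjusted p = 0.297), with an interval from -0.57 to -0.05, and 4 of 4 knockouts lay below the controls. With presence of Xist as a covariate it was -0.37 (SE 0.09, adjusted p = 0.0815), in the 5 libraries without Xist -0.34 (adjusted p = 0.368), and without knockout 1 it was -0.22 (adjusted p = 0.507). Sod1, the cytosolic copper-zinc enzyme (chromosome 16 from 90220742 to 90226324), was at 298, 409, 473 and 340 in controls and at 365, 265, 398 and 288 in knockouts. Its groups overlapped, with a difference of -0.21 (SE 0.18, adjusted p = 0.679; interval -0.61 to 0.20). The extracellular enzyme Sod3 lay between 3.16 and 8.84 in all libraries.

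Prdx3, the peroxiredoxin of the mitochondrial matrix (chromosome 19 from 60864066 to 60874538), stood at 303, 231, 265 and 246 in controls and at 211, 264, 264 and 263 in knockouts. Knockouts 2, 3 and 4 were nearly equal and knockout 1 was below them and below every control. The difference was -0.06 (SE 0.12, adjusted p = 0.869; interval -0.32 to 0.20), and -0.06 again in the 5 libraries without Xist. Cat, the peroxisomal catalase (chromosome 2 from 103453904 to 103485153), stood at 68.1, 48.5, 44.0 and 41.7 in controls and at 52.9, 71.9, 41.8 and 67.7 in knockouts. The high libraries came from both groups, and the difference by genotype was 0.20 (SE 0.20, adjusted p = 0.73; interval -0.26 to 0.66).

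Cat and Sod1 separated by presence of Xist instead, a contrast chosen after the values were seen. Cat was between 67.7 and 71.9 in the 3 libraries with Xist and between 41.7 and 52.9 in the 5 without. In the fit with genotype and Xist together its Xist coefficient was 0.58 on the log2 scale (SE 0.10, adjusted p = 0.0134 in limma). Sod1 showed the opposite arrangement, at 265 to 298 with Xist and 340 to 473 without, with a coefficient of -0.45 (SE 0.11, adjusted p = 0.0414). Of the 10 members Cat was thus the 1 called higher and Sod1 the 1 called lower with Xist, where 7.42% and 5.03% of all genes were called, so 1 of 10 in each direction is near the background. Both were without overlap between libraries with and without Xist, as were 11.4% of all genes in the higher and 9.37% in the lower direction. Adjusted for Xist, the difference by genotype was 0.06 for Cat and -0.09 for Sod1. In the 5 libraries without Xist it was 0.07 and -0.08. Without knockouts 2 and 4 alone both turned in sign, to -0.08 and 0.03. Fibre-type genes were compared with the same libraries. Summed fast-fibre markers, 7 of 11 with usable values, were 99500 to 147000 scaled FPKM in controls and 63200 to 108000 in knockouts, lowest in knockouts 2 and 4. Summed slow-fibre markers, 10 of 10, were 261 to 1020 in controls and 266 to 1840 in knockouts, highest in the 3 libraries with Xist. Csrp3 and Myoz2 made up much of that sum, at 1260 and 304 in knockout 4, whereas Tnnt1, Tnni1 and Tnnc1 were highest in knockout 1, which lacks Xist, at 56.4, 25.8 and 37.1. No marker of either list was at 0 in all libraries. The part of fibre type, sex or handling in the Cat and Sod1 values was not tested.

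**Figure D3:**
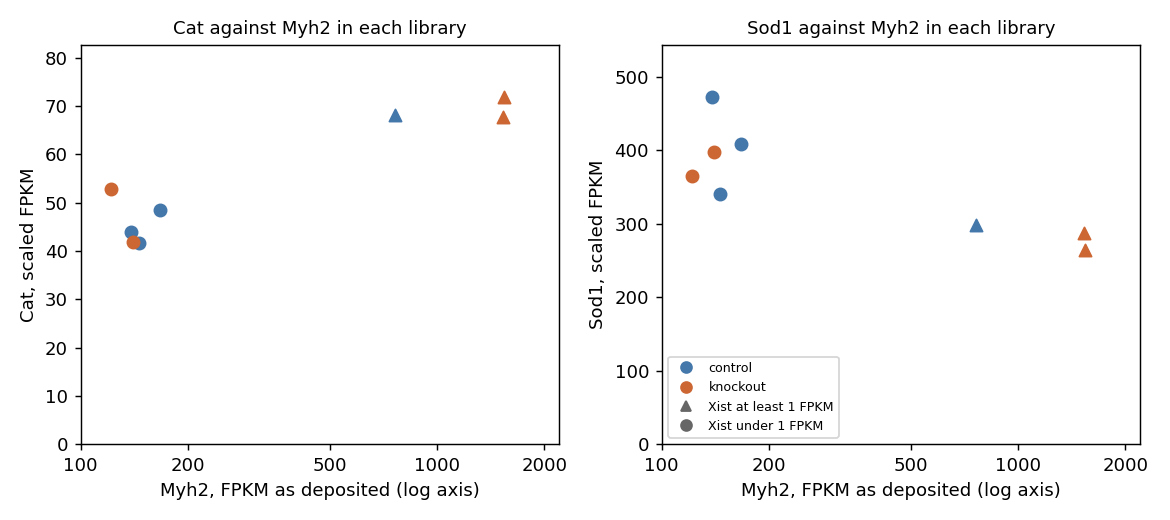
Scaled FPKM of Cat (left) and Sod1 (right) against Myh2 in FPKM as deposited (log axis), for 4 control and 4 knockout libraries; triangles are the 3 libraries with at least 1 FPKM of Xist. The triangles lie at 67.7 to 71.9 for Cat, above all circles, and at 265 to 298 for Sod1, below all circles.

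Around these enzymes the wider superoxide and peroxide list, 23 tested of 24, had 0 called genes and a median of -0.06. The members aside, the smallest p-values belonged to the methionine sulfoxide reductase Msra, at 27.6 ± 0.848 in controls and 24.8 ± 2.39 in knockouts, the glutaredoxin Glrx3, at 38.9 ± 6.31 and 33.3 ± 2.80, the cytosolic peroxiredoxin Prdx1, at 196 ± 9.18 and 179 ± 12.5, and the redox-sensitive chaperone Park7, at 592 ± 124 and 474 ± 129 (mean ± SD, n = 4 each). Their adjusted p-values in limma were 0.489, 0.498, 0.521 and 0.535. Park7 was lowest in knockouts 4 and 2, at 357 and 378, and its difference of -0.34 was -0.09 in the 5 libraries without Xist.

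Glutathione enzymes held the list genes with the smallest p-values outside the members. Of 26 genes 24 were tested and 0 passed, with 14 higher, 10 lower and a median of 0.06. Oplah, the 5-oxoprolinase that returns glutamate to the glutathione cycle, stood at 18.2, 14.5, 14.9 and 12.2 in controls and at 22.5, 21.1, 22.4 and 21.4 in knockouts. The 4 knockouts were close together and all above the controls (difference 0.53, SE 0.11, adjusted p = 0.0915). Mgst3, a microsomal glutathione transferase, stood at 570, 711, 816 and 674 in controls and at 392, 369, 522 and 445 in knockouts. All 4 knockouts were below all controls (difference -0.68, SE 0.14, adjusted p = 0.0946). Lack of overlap held for 4.67% of all genes in the higher and 3.64% in the lower direction. Hagh, the glyoxalase II that frees glutathione, was at 65.9 ± 4.59 and 53.7 ± 3.73 without overlap, and the transferase Gstm4 at 9.71 ± 0.458 and 12.0 ± 1.6 (mean ± SD, n = 4 each; adjusted p = 0.188 and 0.303 in limma). Under the alternatives the lowest adjusted p among all further genes named was 0.0537, so none of them was called in any fit.

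Genes that make superoxide and hydrogen peroxide were in part too low to test. Of 12 genes 6 were below the filter, among them Cybb and Nox4, and 0 of the 6 tested passed. Ero1l, Cyba, Maob and Xdh had the smallest p, differing by 0.17, -0.23, -0.31 and 0.26 on the log2 scale (in the same order, adjusted p = 0.509, 0.524, 0.692 and 0.732 in limma). Single libraries moved 3 of them: Xdh was at 0.05 without knockout 3 and 0.07 without control 4, Maob at -0.08 without knockout 1, and Cyba at -0.10 without knockout 3. Over all lists together, 116 genes that are not members were tested, of which 0 passed. At an unadjusted p under 0.05 there were 5 higher and 5 lower, where the shares over all genes were 7.03% and 6.07%. Of the 116 genes, 3 were higher and 6 lower without overlap between the groups. The shares over all genes were 4.67% and 3.64%, and 8.31% in either direction, so lack of overlap was near the background.

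Mt1 and Mt2 were by far the most variable members. Mt1 (chromosome 8 from 94179089 to 94180327) stood at 193, 84.4, 339 and 52.4 scaled FPKM in controls and at 147, 140, 59.5 and 46.4 in knockouts. Mt2 (chromosome 8 from 94172618 to 94173567) stood at 90.7, 30.8, 260 and 18.9 in controls and at 98.6, 95.6, 30.8 and 16.5 in knockouts. Control 3 was the highest library for both genes and knockout 4 the lowest, and each group held high and low libraries. The highest library was 7.32-fold above the lowest for Mt1 and 15.7-fold for Mt2, and within controls alone the ranges were 6.47-fold and 13.7-fold. By contrast, the other 8 members ranged between 1.19-fold and 2.62-fold. The differences by genotype were -0.58 for Mt1 (SE 0.61, adjusted p = 0.74; interval -1.96 to 0.79) and -0.37 for Mt2 (SE 0.86, adjusted p = 0.889; interval -2.32 to 1.57). With intervals of this width, a moderate difference in either gene was not detectable with 4 animals per group. Without control 3 the difference of Mt1 was -0.13 and that of Mt2 turned to 0.31. In the 5 libraries without Xist they were -0.29 and 0.04, and without control 4 they were -1.02 and -0.92.

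The metallothionein genes varied together. Over the 8 libraries Pearson's r between Mt1 and Mt2 on the log2 scale was 0.98 (exact permutation p = 0.000397) and Spearman's rho 0.90 (exact permutation p = 0.00456). Adjusted over the 45 pairs of members these p-values were 0.0179 and 0.103. Without the 2 libraries farthest from the median of Mt1 the r was 0.95, and no other pair of members had an adjusted p under 0.05 by Pearson's r. By Spearman's rho no pair did, and the highest was that of Keap1 and Gclc, at 0.95 (exact permutation, adjusted p = 0.0513), whose Pearson r was 0.75 (exact permutation, adjusted p = 0.0686). No r is given within 1 genotype or without the libraries with Xist, where fewer than 6 libraries are left. Annotated Mt1 and Mt2 transcripts in GENCODE M21 share no identical run longer than 20 bases. How reads were aligned and divided between these genes was not examined. The ratio of Mt2 to Mt1, both per length, was 0.766 in control 3, where both were highest, and 0.361 and 0.356 in control 4 and knockout 4, where both were lowest. In the other 5 libraries it was between 0.365 and 0.683. After Mt2, the genes most like Mt1 by Pearson r over the 8 libraries were Ik, Kdm4a, Klf13 and Kalrn (0.966 to 0.933), whose own levels varied far less, for example from 47.6 to 54.5 for Ik.

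**Figure D4:**
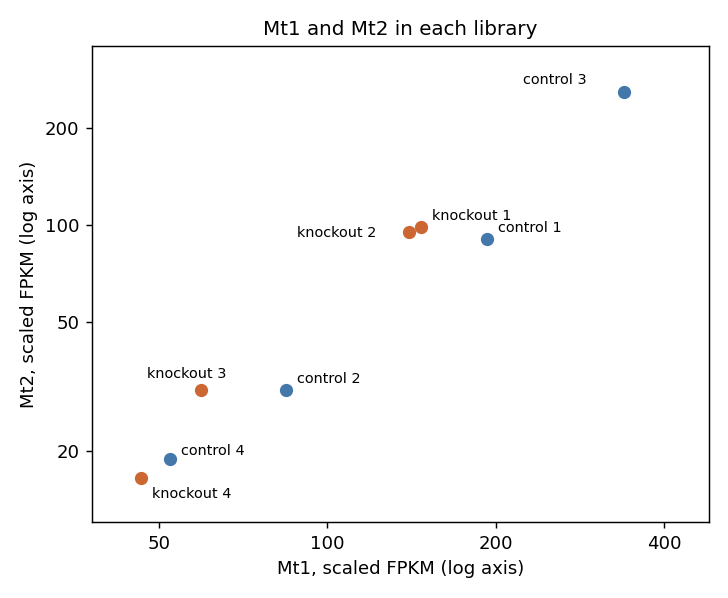
Mt2 against Mt1 in scaled FPKM (both axes log) for the 4 control and 4 knockout libraries, each labelled. Control 3, at 339 and 260, is at the top and knockout 4, at 46.4 and 16.5, at the bottom, and the points of both genotypes interleave.

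Zinc handling genes were listed beside the metallothioneins. Of 23 metallothionein and zinc transport genes 19 were tested and 0 passed, with 13 lower, 6 higher and a median of -0.04. The zinc-sensing factor Mtf1 was between 2.46 and 2.99, and the zinc exporter Slc30a1, a classic MTF1 target, was between 2.02 and 4.43. The part of zinc in the metallothionein values was not tested. Slc30a2, another zinc exporter, was at 1.47, 12.1, 12.1 and 6.97 in controls and at 1.85, 2.28, 5.94 and 1.51 in knockouts (difference -1.09, SE 0.54, adjusted p = 0.441). Control 1 lay below every knockout, so the groups overlapped. The Golgi and endoplasmic reticulum zinc transporter Slc39a7 was at 29.5 ± 2.56 and 34.4 ± 1.51 and Slc30a9 at 37.2 ± 6.10 and 29.7 ± 4.38, both without overlap (mean ± SD, n = 4 each; adjusted p = 0.305 and 0.391 in limma). For Slc30a9 the groups nearly touched, as control 2 and knockout 2 were both at 33.0 when rounded. Slc39a13 differed by -0.19 (adjusted p = 0.483). Mt3, singled out after its values were seen, reached 11.9 in knockout 1, the other 7 libraries lying between 3.0 and 5.66, and Mt4 was at most 0.237.

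Glucocorticoid-responsive genes were listed because glucocorticoids induce metallothioneins. All 20 were tested, 0 passed, 13 were lower and 7 higher, and the median was -0.20. Trim63, the atrophy ubiquitin ligase MuRF1, was at 136, 160, 416 and 131 in controls and at 125, 137, 132 and 90.8 in knockouts. Control 3, the library highest in Mt1 and Mt2, was thus also highest in Trim63, as it was in the steroid-receptor chaperone Fkbp5, singled out after its values were seen, at 58.1 against 8.74 to 45.9 in the others. Pdk4 and Fbxo32, also singled out after their values were seen, were highest in control 3 too, at 301 and 78.6. No other gene of the list was highest in control 3. Per1, at 9.34, and Ddit4, both of the same list, were lowest of all 8 in control 3, and Nfkbia was lowest there among controls, at 24.6. Klf9 and Sgk1 were likewise lowest among controls in control 3, at 39.1 and 155. The part of this in the metallothionein values was not tested. Foxo1, a transcription factor of the atrophy programme, was at 7.97 ± 4.48 and 13.1 ± 5.06 and Cebpd, an early response factor, at 27.4 ± 15.8 and 12.0 ± 6.90 (mean ± SD, n = 4 each; adjusted p = 0.457 and 0.414 in limma). Angptl4, an inhibitor of lipoprotein lipase, differed by -0.26 (adjusted p = 0.56). Cebpd was lowest in knockout 3 and, among controls, in control 3, and so did not share the order of Mt1.

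Markers of other cells that could carry these genes did not pass in any list. Summed endothelial markers, 10 of 10 with values, were 345 to 391 scaled FPKM in controls and 288 to 388 in knockouts, and summed fibro-adipogenic markers 507 to 969 and 410 to 752. Macrophage markers summed to 45.1 to 78.6 and 39.4 to 73.0, and blood markers to 173 to 298 and 192 to 419. None of the markers of these 4 lists was at 0 in all libraries. By genotype, fibro-adipogenic, endothelial and smooth muscle markers had differences below 0 in 10 of 10 genes each, with medians of -0.25, -0.16 and -0.27. The medians of the fibre-type markers were larger in size. Fast-fibre markers were below 0 in 7 of 7 tested, with a median of -0.42. Slow-fibre markers were above 0 in 8 of 9 tested, with a median of 0.53. Schwann cell markers were below 0 in 7 of 8 and macrophage markers above 0 in 7 of 8 tested, and 0 genes of these lists passed. Their part in the values of the antioxidant genes was not tested.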

How the data were processed

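Total RNA was extracted with Trizol and made into TruSeq RNA v2 libraries, per the labels' protocols. STAR, Cufflinks and mm10 are named in the submitters' processing notes, with no version, and the sources used here do not name the annotation. Values were used as FPKM, as deposited by the authors in the gene table of each library. Read counts are not part of these tables, which is why no count model was fitted. Cufflinks divides reads between overlapping genes by estimation. A further 23 genes that Cufflinks did not mark as OK in every library were left out.

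Libraries were scaled by median-of-ratios factors. Genes reaching 1 scaled FPKM in 4 or more libraries were tested with limma 3.58.1 in R 4.3.3 (lmFit, eBayes with a trend) on log2(scaled FPKM + 1), which understates changes of low genes, with a threshold of 0.05 on the Benjamini-Hochberg adjusted p. The fit was also run on simulated data in which each gene was drawn on its own. Such data lack differences that many genes share between libraries, so they cannot show how the fit handles these. The 4 animals per group are biological replicates per the labels. The members, the gene lists and the alternatives were chosen with earlier results of these data known. Named were all members, Carm1, the 4 genes with the smallest p in each list, and the 5 genes most like Mt1, Nqo1 and Nfe2l2; others were singled out after their values were seen, as were the coefficient of Xist and the pairs of members. Promoter sequences are from RefSeq (GRCm38.p6). Python 3.11.15, numpy 2.4.6, pandas 2.3.3 and matplotlib 3.10.9 were used for the rest. Alternatives were no filter, a filter on the mean (5 scaled FPKM), a pseudocount of 0.1, no scaling, quantile normalization, the replicate number as a block, Xist (at least 1 FPKM) as a covariate, and fits without some libraries, in which the genes tested and the factors were kept.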

Additional observations from a re-analysis of the deposited data

Results flagged for a closer look

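In 39 genes and both genotypes, 78 groups of 4 libraries, 3 held a library that stood apart from the others of its group by Dixon's criterion, which chance alone meets in about 1 group in 20. Prdx3 in knockout 1 was at 211 scaled FPKM, with the other 3 knockouts between 263 and 264. Trim63 in control 3 was at 416, with the other controls between 131 and 160, and Foxo1 in control 3 was at 14.6, with the others between 4.85 and 6.42. Control 3 was also the library highest in Mt1 and Mt2, and knockout 1 the library highest in Nqo1 and Gclc. Their causes were not tested.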

How the results depend on the processing

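Under 17 alternatives 0 of 170 values of the members passed the threshold, with a lowest adjusted p of 0.0815 (Sod2 with Xist as a covariate), and 161 kept their direction. The 9 that turned had adjusted p-values of at least 0.899: without knockouts 2 and 4 together Sod1 stood at 0.03 and Cat at -0.08, Prdx3 stood at 0.03 without scaling, 0.02 with quantile normalization and 0.02 without control 1 or knockout 1, and Mt2 at 0.04 in the 5 libraries without Xist, 0.31 without control 3 and 0.11 without knockout 4. Leaving out 1 library gave -0.11 to 0.02 for Prdx3 and -0.92 to 0.31 for Mt2. Of the 28 further genes named, 0 passed under any alternative, and 1 turned, Angptl4, to 0.01 without knockouts 2 and 4 together. The counts over all genes, 22 higher and 18 lower, were less stable. They were 4 and 4 with no filter, 7 and 8 when the mean had to reach 5 scaled FPKM, 121 and 102 with Xist as a covariate, 0 and 3 in the 5 libraries without Xist, and 6 and 7 without knockouts 2 and 4 together. Without scaling, which moved the median of all genes to 0.07, 36 were higher and 13 lower. Leaving out 1 library gave 1 to 13 higher and 1 to 14 lower. With the replicate block 0 were higher and 0 lower in limma (656 and 658 at an unadjusted p under 0.05). The labels name no pairing of same-numbered libraries. Their deviations from the group means correlated by -0.43, -0.19, 0.35 and 0.19 for replicates 1 to 4. For controls 3 and 4, but not 1 and 2, the same-numbered knockout had the highest correlation. These values cannot decide whether same-numbered libraries were paired. Carm1 stood at -0.94 with no filter (adjusted p = 0.0791), -0.94 with the replicate block (0.189), -0.80 in the libraries without Xist (0.168), -0.75 without knockouts 2 and 4 together (0.152) and between -1.02 and -0.84 without 1 library (0.0635 to 0.145). The causes were not tested. No read counts are given, so the depth behind each value is unknown.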

Other observations

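The listed genes were also compared by presence of Xist, a contrast chosen after the values were seen. Of the 116 listed genes that are not members, 6 were higher and 7 lower with Xist at an adjusted p under 0.05 in limma with genotype in the fit, near the shares of all genes, 7.42% and 5.03%. Nnt, the transhydrogenase that regenerates mitochondrial NADPH, was at 56.8, 36.4 and 39.0 scaled FPKM in the 3 libraries with Xist and between 6.18 and 21.5 in the 5 without (coefficient 1.77, SE 0.41, adjusted p = 0.0332). Mgst1, a microsomal glutathione transferase, was at 19.3, 19.0 and 27.5 with Xist and between 32.1 and 98.4 without (coefficient -1.48, SE 0.34, adjusted p = 0.0323). Osgin1, an oxidant-induced growth inhibitor, was at 8.81, 8.17 and 9.34 with Xist and between 11.4 and 19.7 without (coefficient -0.78, SE 0.20, adjusted p = 0.0401). The glutaredoxin Glrx had a coefficient of 0.67 and the stress gene Sesn1 one of 0.70 (adjusted p = 0.0196 and 0.0283), without full separation of the libraries.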
